A study of Homo sapiens with 19 samples.

Results

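YAP1, TCF7L2, NFYA, FOXM1, MEF2A, MEF2D and FOXP1 are genes for regulators of transcription whose proteins differ with the exons kept in the mRNA. All rows of the 15 splicing tables that carry 1 of these 7 gene symbols were taken. This rule uses no measured value, but the genes themselves were picked with earlier results of these data known. They came to 254 of 218798 table rows, 115 of 100239 splicing events and 7 of 11998 genes. The 115 events cover 72 distinct variable segments, of which 45 are exons that can be skipped.

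The RNA came from HMLE/Twist-ER cells, a Tert-immortalized human mammary epithelial line that carries the transcription factor Twist fused to an estrogen receptor domain. The cells are epithelial without treatment (EPI), and 20 nM tamoxifen switches Twist on and drives the epithelial-mesenchymal transition (EMT) to a mesenchymal state (MES). In each state, cells with a non-specific shRNA (control) were set against cells with an shRNA to AKAP8, an RNA-binding protein, to ask how AKAP8 affects splicing in either state and how splicing differs between them. RNA-seq covered 3 EPI control, 3 EPI shAKAP8, 3 MES control and 2 MES shAKAP8 libraries, and AKAP8 binding was mapped by eCLIP in untreated and tamoxifen-treated cells. Every library thus derives from 1 line with ectopic Twist and lentiviral shRNA, and the 2 states differ in tamoxifen as well as in phenotype, which cannot be told apart. The study states that libraries were biological replicates.

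YAP1 is the co-activator of the Hippo pathway, which pairs with TEAD proteins when the kinases LATS1 and LATS2 leave it unphosphorylated. TCF7L2 binds DNA in the Wnt pathway and works with beta-catenin. NFYA is the DNA-contacting subunit of the CCAAT-box factor NF-Y, FOXM1 is a forkhead activator of mitotic genes, FOXP1 is a forkhead repressor, and MEF2A and MEF2D are MADS-box factors first studied in muscle. In some of these genes, short exons that can be kept or skipped lie in regions that contact co-factors or activate transcription. There, 1 gene can give proteins of different strength.

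Variable exons on which the results turn are given here so that each can be recognised. Capitals mark the exon and lower case the 20 intron bases on either side, read 5′ to 3′ on the strand of the gene in GRCh37. Each is bounded by ag before and gt after it. The NFYA exon at chr6:41048550-41048636 (plus strand, 87 nt) lies in the glutamine-rich activation region and is held by 1 of 2 coding transcripts, the long form.
NFYA 87 nt: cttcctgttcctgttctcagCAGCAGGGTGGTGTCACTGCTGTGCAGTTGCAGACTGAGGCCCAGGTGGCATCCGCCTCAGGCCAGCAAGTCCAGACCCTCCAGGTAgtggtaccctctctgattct
The YAP1 exon at chr11:102080248-102080295 (plus strand, 48 nt) lies in the transactivation region and is held by 5 of 9 coding transcripts, while the 114 nt exon at chr11:102056749-102056862 encodes the second WW domain.
YAP1 48 nt: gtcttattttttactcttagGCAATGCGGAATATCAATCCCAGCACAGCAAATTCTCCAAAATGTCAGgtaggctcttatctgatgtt
YAP1 114 nt: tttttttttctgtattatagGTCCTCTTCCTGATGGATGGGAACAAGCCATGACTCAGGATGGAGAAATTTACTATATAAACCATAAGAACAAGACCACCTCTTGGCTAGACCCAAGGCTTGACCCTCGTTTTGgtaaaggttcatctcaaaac
TCF7L2 has 3 alternative exons before its last exon, at chr10:114918426-114918476 (51 nt), chr10:114919679-114919751 (first 73 nt exon) and chr10:114920378-114920450 (last 73 nt exon), all on the plus strand. Their use sets the C-terminal tail of the protein. The 2 exons of 73 nt share 47 of 73 bases (64.4%) when set base against base.
TCF7L2 51 nt: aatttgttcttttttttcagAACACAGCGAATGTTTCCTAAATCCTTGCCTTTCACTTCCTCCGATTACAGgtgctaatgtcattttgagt
TCF7L2 first 73 nt: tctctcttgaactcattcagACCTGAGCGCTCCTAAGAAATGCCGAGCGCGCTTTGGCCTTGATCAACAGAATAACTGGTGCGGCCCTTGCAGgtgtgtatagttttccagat
TCF7L2 last 73 nt: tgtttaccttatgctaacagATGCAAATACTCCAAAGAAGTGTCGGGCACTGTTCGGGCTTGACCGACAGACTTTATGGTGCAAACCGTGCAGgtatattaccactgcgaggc
MEF2A carries 2 exons used in place of each other after its DNA-binding region, of 132 nt (chr15:100211528-100211659, plus strand) and 138 nt. MEF2D carries a coding microexon of 21 nt, and FOXM1 a 45 nt exon at chr12:2974521-2974565 (minus strand) that separates its named isoforms.
MEF2A 132 nt: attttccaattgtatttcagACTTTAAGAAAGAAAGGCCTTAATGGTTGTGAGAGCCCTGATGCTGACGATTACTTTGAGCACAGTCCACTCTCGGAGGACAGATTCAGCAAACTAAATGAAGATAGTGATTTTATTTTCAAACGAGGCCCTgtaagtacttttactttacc
FOXM1 45 nt: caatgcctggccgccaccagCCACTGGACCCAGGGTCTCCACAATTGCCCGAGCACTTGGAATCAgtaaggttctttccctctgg

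AKAP8, the gene targeted by the shRNA, had 244, 310 and 245 scaled junction reads in the EPI control libraries and 121, 98.8 and 125 in the EPI shAKAP8 libraries. In MES the values were 382, 196 and 248 in control and 108 and 122 in shAKAP8 libraries. Control and knockdown libraries did not overlap in either state. The log2 fold change was -1.20 (SE 0.25, limma adjusted p = 0.0664) in EPI and -1.20 (SE 0.28, limma adjusted p = 0.0322) in MES. Leaving out EPI control 1, MES control 1 or 3, or either MES shAKAP8 library moved the adjusted p in MES to between 0.0559 and 0.18. Between the states, all 8 tested epithelial markers were lower in MES (median log2 fold change -3.81) and all 9 tested mesenchymal markers were higher (6.61), so the labels of the states held. Of 10 markers of leukocytes, endothelium and liver, only CD68 had enough reads to be tested, and it was lower in MES (log2 fold change -1.02, adjusted p = 0.0457). Its part in the results was not tested. Each library held 31258177 to 40852217 junction reads over exon-skipping events, each read counted once per event it supports.

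Splicing of the 7 genes differed between EPI and MES in NFYA, TCF7L2 and YAP1, and no event of any of them passed the test after AKAP8 knockdown. Percent spliced in (PSI) is the share of junction reads that include the variable segment, after the reads of each form are divided by its deposited effective length. An event passed at a Benjamini-Hochberg false discovery rate (FDR) under 0.05 and a difference (∆PSI) of at least 10 percentage points, from a quasi-binomial test moderated with limma. In MES control against EPI control, 6 of 77 tested events passed, against 1.59% of all 67451 events. Of these 6, 5 had higher PSI in MES (0.771% of all events) and 1 had lower PSI (0.820%). TCF7L2 gave 4 of the 6, NFYA 1 and YAP1 1, and the 4 TCF7L2 events share reads and describe a single switch. A limma test on logit-transformed PSI kept 3 of the 6 and lost the YAP1 exon and 2 TCF7L2 events. Over all events it passed 541, against 1073 in the main test. FOXM1 (15 events tested), MEF2A (10), FOXP1 (6) and MEF2D (3) gave none. With no adjustment of p, 11 of the 77 were under 0.05 and past 10 points (3.79% of all events), of which 8 were in TCF7L2.

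After knockdown, 0 of 76 tested events passed in EPI (0.0492% of all events) and 0 of 76 passed in MES (0.0540%). The test on logit-transformed PSI gave 0 members in both. It passed 0 of all 65008 events in EPI and 7 of 59288 in MES, so its result for the members adds nothing. With an unadjusted p under 0.05 and the same 10 points, 2 of 76 passed in EPI (0.998% of all events) and 0 of 76 in MES (1.28%). The 2 were the NFYA 87 nt exon and a 15 nt segment of TCF7L2. For the change of the knockdown effect between states, 0 of 48 tested events passed, with 0.00989% of all events passing and again 0 members at an unadjusted p under 0.05 and 10 points (1.73%). Both knockdown comparisons share their control libraries with the comparison of states. The median absolute ∆PSI of the tested events was 0.97 points in the EPI knockdown (0.78 over all events), 1.47 in the MES knockdown (1.01) and 1.69 between the states (0.93). The groups did not overlap in 5 of 76 events in EPI (6.76% of all events), in 21 of 76 in MES, where 2 libraries faced 2 (24.1%), and in 22 of 77 between states (12.6%). Of the 115 events, 11, 5 and 9 listed in the tables of these comparisons had under 20 junction reads per library on average and were not tested.

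**Figure D1:**
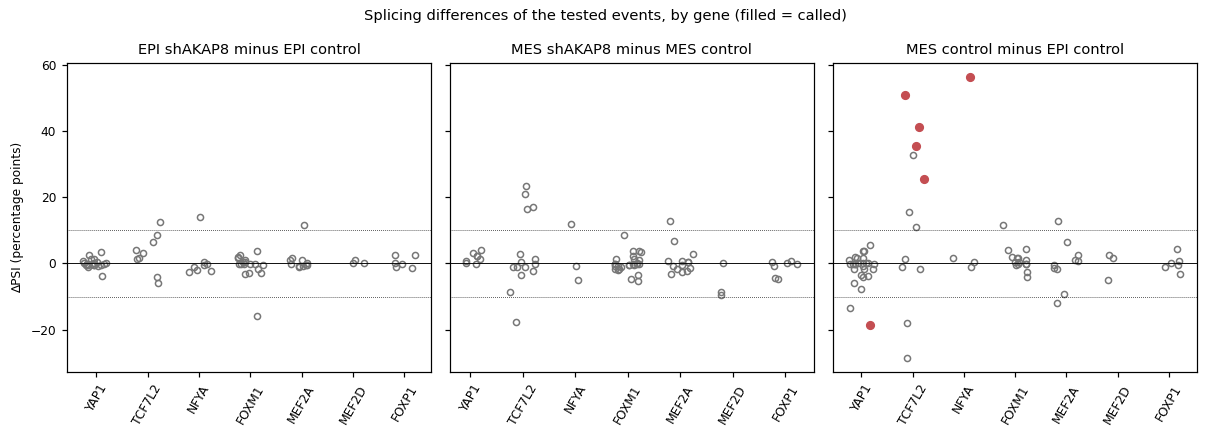
∆PSI in percentage points (y axis) of each tested event, by gene (x axis), in the 3 comparisons. Dotted lines mark 10 points either way, filled points passed the test, and the only filled points are 4 of TCF7L2, 1 of NFYA and 1 of YAP1 in MES control minus EPI control.

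The NFYA 87 nt exon showed the largest difference of the 7 genes. Its PSI was 16.2, 15.2 and 7.73% in EPI control and 63.5, 69.4 and 74.8% in MES control libraries. All MES control values lay above all EPI control values. From 13.1 ± 4.64% (SD, n = 3) to 69.3 ± 5.65% (SD, n = 3), the difference was +56.2 points (SE 4.22, FDR = 1.83e-21 by the limma-moderated test). The reads behind it were 34, 39 and 13 for inclusion and 94, 116 and 83 for skipping in EPI control, and 127, 191 and 189 against 39, 45 and 34 in MES control. Most NFYA mRNA thus lacked the exon in untreated cells and held it after tamoxifen.

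In the EPI shAKAP8 libraries, PSI of the same exon was 35.3, 22.7 and 23.4%. All 3 lay above the EPI controls and below the MES controls. The difference from EPI control was +14.1 points (SE 4.90), with an unadjusted p of 0.00414 and an FDR of 0.705, and did not pass. In MES, the shAKAP8 libraries gave 75.7 and 80.8%, a difference of +11.8 points (SE 3.91, FDR = 0.763) from the 2 control libraries in that table. Both lay above all 3 MES controls. The knockdown effects in the 2 states differed by -5.10 points (FDR = 0.817). The remaining NFYA exons were nearly constant, with group means from 94.9 to 100% for the 136 nt exon that holds the start codon and from 97.6 to 100% for the 132 nt exon.

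**Figure D2:**
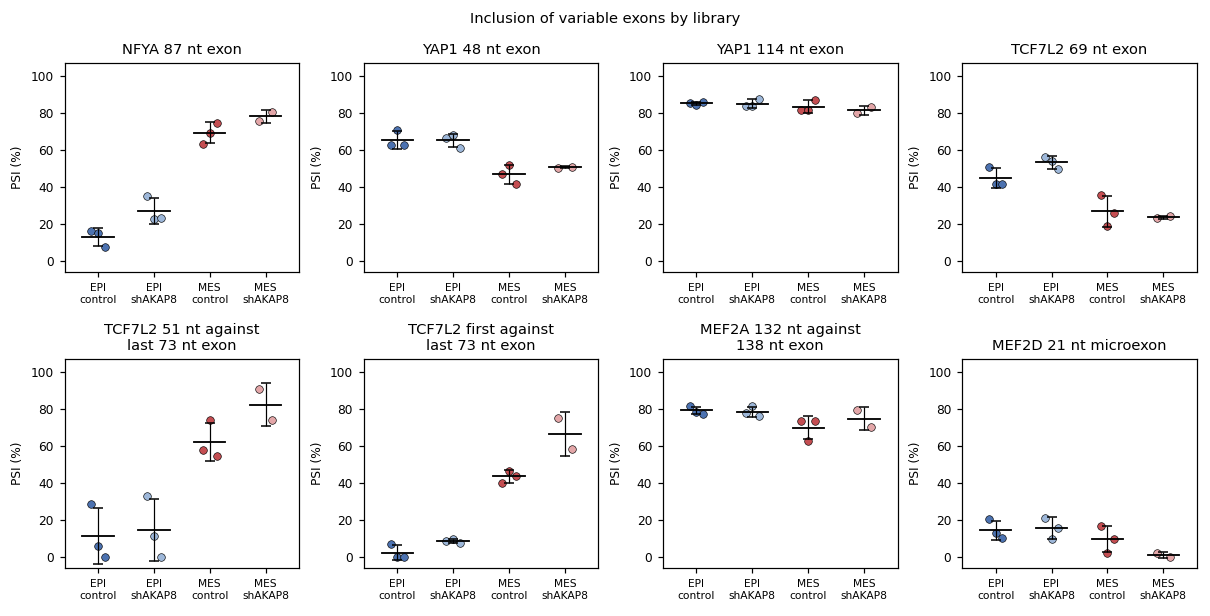
PSI in percent (y axis) of 8 variable exons in each library, by group (x axis). Points are libraries, horizontal lines are means and bars are SD, and the EPI and MES control points do not overlap for the NFYA 87 nt exon, the YAP1 48 nt exon and the 2 TCF7L2 tail events, which passed, nor for the TCF7L2 69 nt and MEF2A 132 nt exons, which did not.

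YAP1 kept its 48 nt exon less often in MES. PSI was 62.7, 71.0 and 62.9% in EPI control and 47.1, 51.9 and 41.9% in MES control libraries. The groups did not overlap. The difference was -18.6 points (SE 3.96, FDR = 0.000205), from 65.5 ± 4.71% to 46.9 ± 5.0% (SD, n = 3 each). On the logit of PSI the limma adjusted p was 0.383, which did not pass. With 439 to 641 reads in each of these 6 libraries, this exon is the most deeply covered of the exons that passed. The shAKAP8 libraries had 66.7, 68.0 and 60.9% in EPI and 50.5 and 51% in MES. The values of each state overlapped those of its controls, and the differences were -0.33 points (SE 3.48, FDR = 0.994) and +1.31 points (SE 2.42, FDR = 0.942).

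The exon before it can end at either of 2 donor sites that are 12 nt apart, and this choice adds residues in the region of the leucine zipper of the protein. The 12 nt between the sites, in capitals, lie at chr11:102076806-102076817.
YAP1 12 nt: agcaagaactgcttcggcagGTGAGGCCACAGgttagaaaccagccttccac
PSI of the longer end was 27.3 to 28.6% in EPI control, 25.6 to 32.5% in EPI shAKAP8, 26.2 to 34.3% in MES control and 30.9 to 32.1% in MES shAKAP8 libraries. The ranges overlapped between the states (+1.74 points, FDR = 0.846). When the 48 nt exon was counted after the longer end, PSI was 79.4, 77.6 and 72% in EPI control and 58.2, 68.5 and 61.8% in MES control. These values did not overlap either, yet the difference of -13.5 points did not pass (FDR = 0.106). The 114 nt exon of the second WW domain had 84.3 to 86.1% in EPI control and 81.4 to 87.3% in MES control libraries (-1.69 points, FDR = 0.672). It was kept in most YAP1 mRNA in every group.

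TCF7L2 changed its tail exons between the states. Reads that left the 49 nt exon ahead of the tail and joined the last 73 nt exon numbered 27, 32 and 33 in EPI control and 7, 7 and 18 in MES control libraries. Reads that joined the first 73 nt exon numbered 0 in each EPI control library and 2, 5 and 9 in MES control. Between the 2 exons of 73 nt, the last therefore dominated in EPI, and the first was seen in every MES control library. Reads that passed over all 3 exons numbered 5, 7 and 10 in EPI control and 8, 15 and 5 in MES control. Reads from the 49 nt exon to the 51 nt exon were not counted here, so these counts do not cover every tail choice. After knockdown the reads to the last 73 nt exon were 13, 38 and 16 in EPI and 3 and 5 in MES, and those to the first were 1, 4 and 0 in EPI and 8 and 12 in MES.

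**Figure D3:**
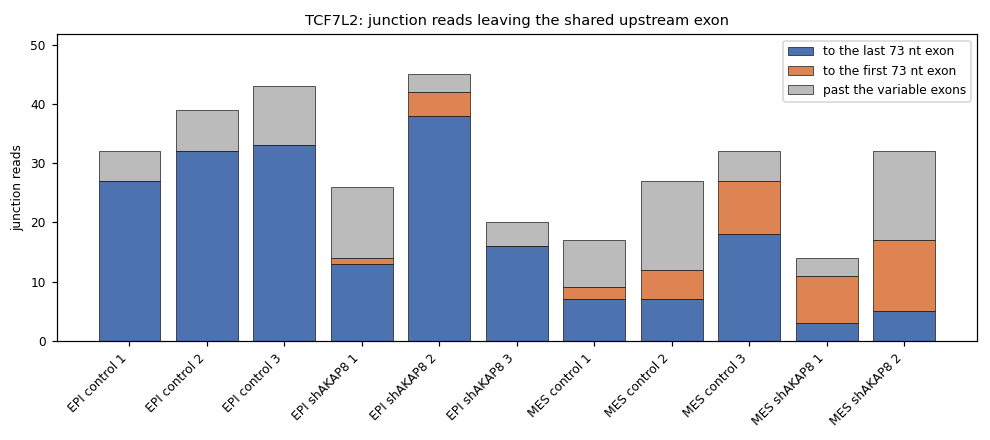
Junction reads (y axis) from the shared 49 nt exon of TCF7L2 to either 73 nt exon or past the variable exons, stacked for each library (x axis). Reads that join the 51 nt exon are left out, so the stack does not show every tail choice. Reads to the last 73 nt exon sum to 92 over the EPI controls and 32 over the MES controls, and reads to the first 73 nt exon sum to 0 and 16.

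As PSI, the first against the last 73 nt exon gave 6.98, 0 and 0% in EPI control and 40.0, 46.7 and 44.1% in MES control. The groups were far apart, with a difference of +41.3 points (SE 3.03, FDR = 6.47e-05). The 51 nt exon against the last 73 nt exon gave 28.7, 5.99 and 0% in EPI control and 57.9, 74.2 and 54.7% in MES control, a difference of +50.7 points (SE 10.6, FDR = 0.000118). On the logit of PSI, the limma adjusted p of these 2 events was 0.0769 and 0.221, and neither passed. EPI control 1 stood above its group in the 51 nt event, and still below all MES controls. The same 2 exons counted against skipping straight to the last 73 nt exon rose by 35.4 points (51 nt, SE 8.55, FDR = 0.0121) and by 25.4 points (first 73 nt, SE 8.45, FDR = 0.0136). These last 2 results rest on 11 to 37 reads per library, and leaving out single libraries moved their FDR as high as 0.149 and 0.258. The libraries whose omission ended the call were EPI control 2 or 3 and MES control 1 or 2 for the 51 nt exon, and EPI control 1 or 2 and MES control 2 for the first 73 nt exon. A fit with the place of a library in its group as a replicate block gave 0.156 and 0.21.

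After knockdown, the first against the last 73 nt exon had PSI of 8.70, 10 and 7.69% in EPI, above the EPI controls, and 75.0 and 58.3% in MES, above the MES controls. Neither difference passed (+6.47 points, SE 2.42, FDR = 0.804 in EPI and +23.3 points, SE 8.98, FDR = 0.999 in MES). The reads per library numbered 15 to 50 in this event. For the 51 nt against the last 73 nt exon the values were 33.0, 11.3 and 0% in EPI and 90.7 and 74.2% in MES, where the EPI values overlapped their controls and the lower MES value equalled the highest control value.

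Further up in TCF7L2, the 69 nt exon at chr10:114724315-114724383 had PSI of 51, 42.0 and 41.6% in EPI control and 35.8, 18.8 and 26.2% in MES control. The groups did not overlap, and the difference of -17.9 points did not pass (FDR = 0.184). A 15 nt segment at chr10:114910742-114910756, between 2 acceptor sites, is shown in capitals.
TCF7L2 15 nt: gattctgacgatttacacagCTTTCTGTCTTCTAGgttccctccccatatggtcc
It was included at 9.65, 19.6 and 11% in EPI control, 28.7, 19.5 and 29.1% in EPI shAKAP8, 26.1, 30.0 and 30.8% in MES control and 33.7 and 20.1% in MES shAKAP8. The difference was +12.4 points after knockdown in EPI (unadjusted p 0.0341, FDR = 0.754), with overlap, and +15.6 points between the states (FDR = 0.161), without overlap. The 141 nt exon at chr10:114849159-114849299 had group means of 4.40 to 12.7%.

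MEF2A used its 132 nt exon over the 138 nt exon in most mRNA of every group. The share of the 132 nt exon was 81.6, 78.5 and 77.6% in EPI control, 77.8, 81.5 and 76.3% in EPI shAKAP8, 73.5, 62.8 and 73.6% in MES control and 79.3 and 70.5% in MES shAKAP8. MES controls lay below EPI controls without overlap, a difference of -9.25 points, and the difference did not pass (FDR = 0.105). As an exon kept or skipped, the 132 nt exon had 67.98 ± 1.14% in EPI control and 55.99 ± 2.20% in MES control (SD, n = 3 each), a difference of -12.0 points (FDR = 0.539). This event shares reads with the one before. The 24 nt exon at chr15:100243567-100243590, the short beta exon seen in muscle and neurons, had group means of 0.71 to 1.73%. An 82 nt noncoding exon at chr15:100138635-100138716 had 75.3, 76.5 and 65.5% in EPI control, 80.7, 87.7 and 83.8% in EPI shAKAP8 and 86.6, 78.3 and 90.9% in MES control. The last 2 groups lay above EPI control, with differences of +11.7 (FDR = 0.705) and +12.9 points (FDR = 0.489) that did not pass.

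The MEF2D 21 nt microexon, the short beta exon of muscle and neural isoforms, had low inclusion throughout. PSI was 20.4, 12.9 and 10.6% in EPI control, 21.4, 9.94 and 16.0% in EPI shAKAP8 and 16.7, 2.53 and 9.84% in MES control libraries. The 2 MES shAKAP8 libraries had 2.17 and 0%, from 2 and 0 inclusion reads beside 75 and 83 skipping reads, and lay below all 3 MES controls. The difference in MES was -8.52 points (SE 7.16), with an unadjusted p of 0.0113 and an FDR of 0.763. It ranged from -15.6 to -1.45 points as single libraries were left out. The knockdown effects in the 2 states differed by -9.78 points (FDR = 0.659).

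FOXM1 kept its 45 nt exon in most mRNA. PSI was 95.8 to 96.5% in EPI control, 89.7 to 95.5% in EPI shAKAP8, 95.9 to 98.6% in MES control and 96.2 to 98.7% in MES shAKAP8. The EPI shAKAP8 range lay below EPI control, by 3.12 points (SE 1.71, FDR = 0.705). The 114 nt exon at chr12:2970465-2970578, which interrupts the transactivation region, had group means of 5.10 to 7.87%. At 2 other exons the acceptor site was doubled 3 nt apart. The segment at chr12:2973919-2973921 was included at group means of 17.6 to 22.1%, and that at chr12:2981411-2981413 at 55.0 to 59.4%. No difference between groups passed for any of them.

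FOXP1 offered few variable exons in these cells. Its 138 nt exon at chr3:71102787-71102924 had PSI of 100% in each EPI control and 93.1, 80.0 and 84.0% in the EPI shAKAP8 libraries, from 0 skipping reads in the controls and 1, 1 and 2 after knockdown. This was below the minimum of reads and was not tested, and the exon was not listed in the tables of the MES knockdown or of the states. The 3 nt doubled acceptor at chr3:71026871-71026873 had 66.2, 65.7 and 60.3% in EPI control and 72.9, 77.7 and 55.1% in MES control. These overlapped (+4.47 points, FDR = 0.762). The 105 nt exon at chr3:71064700-71064804, counted against an 88 nt exon, had group means of 50.4 to 58.5%. As exons kept or skipped, the 170 nt exon tested in the MES knockdown had means of 0 and 0.13%, and the 5 other tested exons had group means above 96%.

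Of the 72 variable segments, 30 stayed at a mean PSI of up to 5% in every group or of at least 95% in every group, and 42 did not. The exons that passed (NFYA 87 nt, YAP1 48 nt and TCF7L2 51 nt) have lengths that are multiples of 3 and keep the reading frame, except for the 73 nt exons of TCF7L2. Over all 45 skipped exons, 24 are multiples of 3.

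At gene level none of the 7 genes passed in any comparison. The level of a gene was approximated by its junction reads over exon-skipping events, divided by size factors, so it changes with splicing and is not per length. In bulk RNA, fewer cells that express a gene and less RNA per cell cannot be told apart. The test was limma on log2(level + 1), with an adjusted p under 0.05 and a log2 fold change over 1 in size. In EPI knockdown 0 of 7 passed (0.189% of 9016 genes), in MES knockdown 0 of 7 (2.27%) and between the states 0 of 7 (12.5%). With no adjustment and at any fold, p was under 0.05 for 1 (9.87% of all genes), 2 (21.8%) and 4 (36.3%) of the 7.

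NFYA had levels of 529, 770 and 744 in MES control and 326 and 412 in MES shAKAP8 libraries. The knockdown libraries lay below the controls, with a log2 fold change of -0.87 (SE 0.22, adjusted p = 0.0439), under the fold required. Without MES control 1 it was -1.05 (adjusted p = 0.0454) and passed. In EPI the levels were 537, 644 and 471 in control and 386, 471 and 404 in shAKAP8 libraries (-0.38, SE 0.20, adjusted p = 0.595), where the ranges met at 471. FOXM1 had 1865, 2618 and 2175 in EPI control, 2690, 4544 and 3268 in EPI shAKAP8, 4043, 3715 and 3393 in MES control and 6576 and 4110 in MES shAKAP8. Both other groups lay above EPI control, by a log2 fold change of 0.64 (SE 0.22, adjusted p = 0.316) after knockdown and 0.75 (SE 0.22, adjusted p = 0.0237) in MES.

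FOXP1 had 648, 639 and 625 in EPI control and 820, 1150 and 893 in MES control, a log2 fold change of 0.57 (SE 0.19, adjusted p = 0.0444). FOXM1 and FOXP1 are the 2 members with an adjusted p under 0.05 between the states, against 23.9% of all genes at any fold, as NFYA is the only one in the MES knockdown (4.16%). These 3 adjusted p-values reached 0.107 for FOXM1, 0.2 for FOXP1 and 0.265 for NFYA as single libraries were left out. The threshold was missed without EPI control 1 or 3 or MES control 1 or 2 for FOXM1, without any 1 of the control libraries or EPI shAKAP8 3 for FOXP1, and without any library but EPI shAKAP8 2 or MES control 1 for NFYA. YAP1 had 2945, 2876 and 3361 in EPI control, 2591, 2236 and 2871 in EPI shAKAP8, 2313, 2676 and 2441 in MES control and 1716 and 2055 in MES shAKAP8. Each knockdown group lay below the controls of its state, with log2 fold changes of -0.26 (adjusted p = 0.638) and -0.40 (adjusted p = 0.179). TCF7L2 stayed between 213 and 369 in all libraries, MEF2A between 676 and 1243 and MEF2D between 127 and 252. Between the states their log2 fold changes were 0.18 (adjusted p = 0.506), 0.49 (adjusted p = 0.0835) and -0.53 (adjusted p = 0.118). From the deepest exon-skipping event alone, the MEF2A value was 0.16 (adjusted p = 0.547), and with a replicate block its adjusted p was 0.0374. Scaling by total junction reads instead moved the median of all genes from 0.01 to -0.10 between the states and from -0.01 to -0.14 in the MES knockdown.

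**Figure D4:**
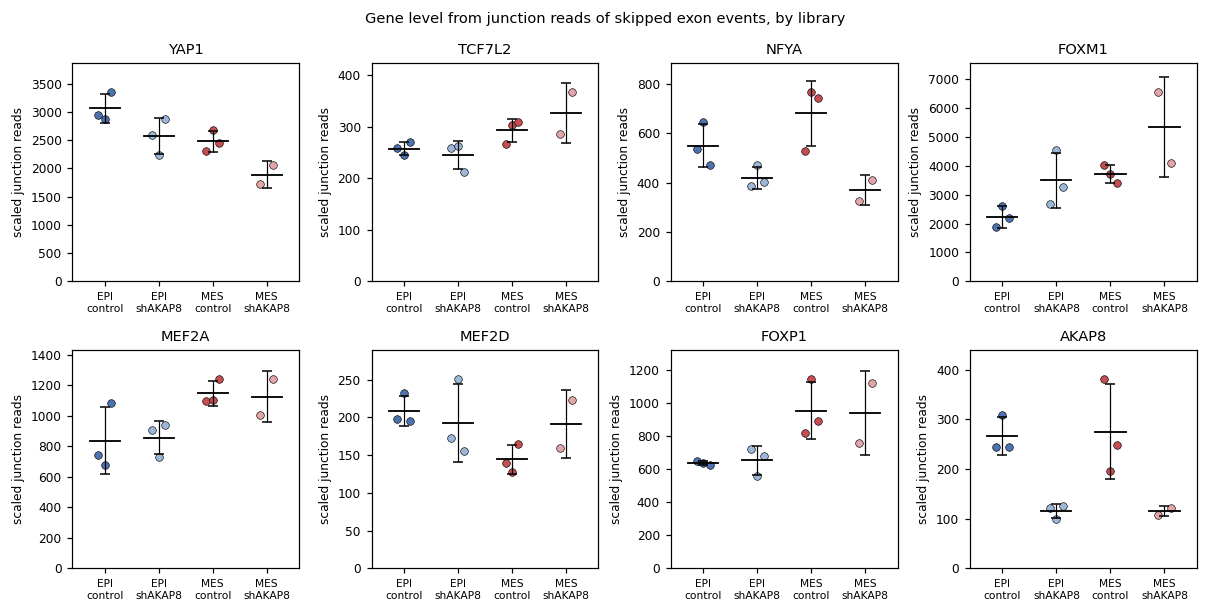
Scaled junction reads (y axis) of the 7 genes and of AKAP8 in each library, by group (x axis). Points are libraries, lines are means and bars are SD, and AKAP8 is lower in all shAKAP8 libraries than in the controls of its state.

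Across the 11 libraries, the genes whose level was most like that of a member, by Pearson r of the log2 level, were WDR60 for YAP1 (r = 0.97), GZF1 for TCF7L2 (0.90), LOXL1 for NFYA (0.96), ISY1 for FOXM1 (0.97), MEG3 for MEF2A (0.95), ERF for MEF2D (0.95) and SYNJ1 for FOXP1 (0.95), each the highest of 9015 genes. Among 23468 exons with at least 20 reads in every library, PSI of the NFYA 87 nt exon was most like that of a 207 nt exon of YBX3 (r = 0.99), which binds Y-box DNA and RNA, and of exons of 27 nt (0.98) and 45 nt (0.98) of the kinase MARK3. PSI of the YAP1 48 nt exon was most like that of a 72 nt exon of ADAM15 (0.94), a 156 nt exon of MIF4GD (0.93) and a 93 nt exon of SLK (0.93). These r values describe the same 11 libraries, which share their state, and carry no test.

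In the Hippo pathway around YAP1, 19 of 26 listed genes had a level to test. Between the states 1 rose and 2 fell, with a median log2 fold change of 0.09 against 0.01 over all genes. AXL, a receptor kinase that YAP1 can induce, rose (log2 fold change 1.13), and VGLL4, which competes with YAP1 for TEADs, fell (-2.24), as did the kinase STK3 (-1.0). Of 139 tested events in this list, 9 passed between the states (6 with higher and 3 with lower PSI in MES). Some of the 9 share exons, in TEAD1 and in AXL. A 12 nt exon of TEAD1, the DNA-binding partner of YAP1, went from 17.3 to 70.1% (+52.8 points, FDR = 1.08e-06). A 63 nt exon of TEAD1 went from 26.3 to 77.2% (FDR = 0.00172), with a mean of 29 reads. Counted with other neighbouring exons, the 63 nt exon went from 79.6 to 100% (mean of 43 reads, FDR = 0.0184). Against another exon it went from 5.59 to 17.7% (mean of 182 reads, FDR = 0.00798). A 45 nt exon of NF2, the upstream tumour suppressor of the pathway, went from 89.3 to 70.1% (FDR = 0.00641), and a 95 nt exon of LATS1 from 4.42 to 18.2% (FDR = 0.0133).

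In the Wnt list, 22 of 34 genes were tested between the states, 3 rose, 4 fell and the median was -0.05. LEF1, which like TCF7L2 binds DNA with beta-catenin, rose (log2 fold change 3.28), as did WNT5B (1.93) and the co-repressor TLE4 (1.02). CTNNBIP1, which blocks the binding of beta-catenin to TCF proteins, fell (-1.92), together with TLE1 (-1.67), AXIN1 (-1.12) and the receptor LRP5 (-1.08). In the MES knockdown TLE1 rose (1.19) and no other listed gene passed. Of 145 tested events between the states 3 passed, 2 in CSNK1A1 and 1 in AXIN1.

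In the MEF2 list of co-factors and kinases, CAMK1 rose (2.20) and HDAC9, a MEF2 repressor, fell (-1.99) between the states among 17 tested genes. HDAC9 rests on 1 event with low levels, 51.2, 16.7 and 45.5 in EPI control and 8.82, 10.2 and 5.27 in MES control. The latter lie near the minimum of 10, so the size of this fold is uncertain. CAMK1 fell in the MES knockdown (-1.25). Of 143 tested events 6 passed between the states. A 111 nt exon of HDAC7, another repressor of MEF2, went from 78.1 to 27.5% (FDR = 3.05e-12). A retained intron of NFATC4, 1 of the calcium-responsive NFAT factors, went from 78.0 to 24.8% (FDR = 0.047). A 104 nt exon of NFATC3 went from 17.3 to 41.9% (FDR = 0.0105) and a 69 nt exon of CAMK2G from 65.1 to 86.0% (FDR = 0.0256).

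In the list around FOXM1, of mitotic genes together with MYBL2 and subunits of the MuvB complex that binds FOXM1, 0 of 23 tested genes and 0 of 176 tested events passed between the states, with a median log2 fold change of 0.17. In the list of the other NF-Y subunits and of transcription factors that bind DNA beside NF-Y, 0 of 9 genes and 2 of 58 events passed, both in SREBF1, where a 44 nt exon went from 23.1 to 6.60% (FDR = 0.00013). In the list of other forkhead genes and the co-repressors CTBP1, CTBP2 and GATAD2B, FOXN3 rose (2.92) among 9 tested genes, the other 8 did not pass, and 0 of 73 events passed. In the EPI knockdown no gene of these lists passed at gene level, and no event of them passed in either knockdown. The shares of all genes and events that passed were those given above.

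AKAP8 eCLIP gave 15 listed peaks over the 7 genes in EPI and 14 in MES, all on the strand of the gene. Peaks that overlap or lie inside each other are listed separately, so the counts here are of intervals and not of separate sites. In EPI, for example, the MEF2A peak at chr15:100106527-100106606 lies inside that at chr15:100106526-100106608. The MEF2D peak at chr1:156469983-156470050 lies inside that at chr1:156469974-156470077. Peaks of MEF2A also overlap in MES. The listed peaks lay in MEF2D (7 in EPI and 4 in MES), MEF2A (6 and 3) and TCF7L2 (2 and 7), and YAP1, NFYA, FOXM1 and FOXP1 had none. At the cutoffs of the study methods, a log2 over 2 and a −log10 p over 3, MEF2D kept 7 and 3, MEF2A 6 and 3 and TCF7L2 1 and 1. Listed peaks were thus found in 3 of 7 genes in either state, beside 20.0% of all genes with at least 1 peak in EPI and 14.2% in MES. Per 10 kb of gene, the members had 0.124 peaks in EPI and 0.116 in MES, beside 0.25 and 0.305 over all genes. In EPI, 13 peaks lay in introns and 2 nested peaks in noncoding exon of MEF2A, and in MES all 14 were intronic. Peaks at overlapping positions in the other state were 7 of 15 in EPI (46.7%) and 7 of 14 in MES (50%). Replicates were merged by the authors, so no test between the states was possible.

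The strongest peaks, by the deposited log2 of IP over input, are printed on the RNA strand in DNA letters, with runs of at least 3 G in capitals, because these short runs were counted in all peaks. The MEF2A peak lies in the first intron at chr15:100106389-100106468, 767 bases from the gene start (log2 4.23, −log10 adjusted p 22.3). A MES peak began at the same base (log2 3.19).
MEF2A EPI: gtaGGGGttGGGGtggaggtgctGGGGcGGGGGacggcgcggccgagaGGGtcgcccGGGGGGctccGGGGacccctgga
The MEF2D peaks at chr1:156469974-156470077 in EPI (log2 4.86) and at chr1:156468615-156468661 in MES (log2 3.67) lie 494 and 1910 bases from the gene start.
MEF2D EPI: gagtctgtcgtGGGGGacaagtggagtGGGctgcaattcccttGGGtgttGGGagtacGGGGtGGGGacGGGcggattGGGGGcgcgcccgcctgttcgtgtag
MEF2D MES: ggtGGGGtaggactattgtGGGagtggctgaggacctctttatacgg
The TCF7L2 peaks at chr10:114802168-114802240 in EPI (log2 3.86) and at chr10:114752112-114752154 in MES (log2 3.99) lie deep in introns, 92162 and 42106 bases from the gene start.
TCF7L2 EPI: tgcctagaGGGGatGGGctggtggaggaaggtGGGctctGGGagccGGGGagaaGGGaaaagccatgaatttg
TCF7L2 MES: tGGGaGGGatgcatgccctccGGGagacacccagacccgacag
GGG was present on the RNA strand in 15 of 15 EPI and 14 of 14 MES listed peaks, some of which overlap. Among all peaks of whatever length the shares were 97.3 and 95.9%. TGGG was present in 15 of 15 and 12 of 14 (all peaks 78.9 and 75.1%) and AGGG in 12 of 15 and 12 of 14 (74.9 and 67.8%), and both contain GGG.

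**Figure D5:**
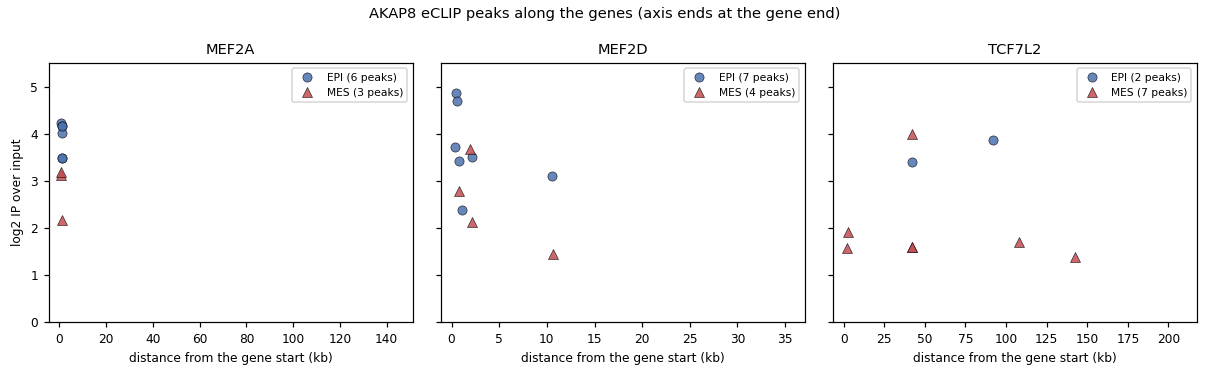
Deposited log2 of IP over input (y axis) of each AKAP8 peak against its distance from the gene start in kb (x axis) in MEF2A, MEF2D and TCF7L2, for EPI and MES. All MEF2A peaks lie 766 to 1011 bases from the gene start, and those of MEF2D lie within 10608 bases of it.

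None of these peaks lay near the exons that differed. Within 1000 bases of a peak lay 0 of the 45 skipped exons in EPI, beside 3.04% of all skipped exons, and 1 of 45 in MES, beside 2.15%. The 1 was the 125 nt exon near the start of TCF7L2, with peaks 939 and 1000 bases away and a PSI of 99.0 to 100% as group means. Both peaks, at log2 1.58 and 1.92, were under the log2 of 2 that the study methods require. Within 500 bases there were none (1.73 and 1.31% of all skipped exons). The peak closest to the MEF2D microexon was 13618 bases away. NFYA and YAP1, whose exons passed between the states, had no listed peak on either strand.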

How the data were processed

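RNA-seq and eCLIP libraries of HMLE/Twist-ER cells were analysed from the deposited tables, and the 7 genes and the lists were chosen with earlier results of these data known. The authors aligned reads to GRCh37 (Gencode 24) with STAR and counted inclusion and skipping junction reads per event with rMATS. The deposited junction counts, joined by group in 1 field, were split by place in the group, and the tables do not tie places to numbered replicates. PSI was recomputed with the deposited effective lengths, which leaves the 30 per-sample PSI columns unused. The rMATS p-value, FDR and PSI difference columns, and the gene table made by the authors with featureCounts 1.5.0 and DESeq2, hold the authors' own comparisons and were not used. The symbol column of that gene table holds whole numbers.

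Inclusion against skipping reads was tested with a quasi-binomial F test over all events of a type with a mean of at least 20 reads, the dispersion being moderated by squeezeVar of limma (robust trend on reads of the rarer form, floor of 1, trend value under 10 such reads). P-values were adjusted by Benjamini-Hochberg within type and comparison. The interaction used all 11 libraries. Gene levels summed the reads of 33107 skipping events shared by the 3 comparisons, divided by median-of-ratios size factors, and genes with at least 10 in 2 libraries were fitted with limma on log2(value + 1). Scripts were tested on simulated data and run in R 4.3.3 with limma 3.58.1 and in Python 3.11.15 with pandas 2.3.3 and pysam 0.24.0. ∆PSI SE comes from the group SDs.

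EPI controls were identical in both tables that hold them (100% of 44899 skipping events), as were 2 MES controls (100% of 41773). Libraries at the same place deviated together at gene level in the EPI groups (r = 0.28, 0.58 and 0.49) and may be paired there. Different places were not compared at gene level, so pairing was not established. Printed gene values come from the fit without a replicate block, and the block gave 33 in place of 17 of all genes in the EPI knockdown and 0 members in both. For PSI r was 0.04, 0.14 and 0.09 in the EPI knockdown and -0.06, 0.03 and -0.03 between the states. In the MES knockdown it was 0.29 at both places, which are equal by design with 2 libraries per group. No pairing was assumed for PSI. The smallest exact permutation p is 0.1 for 3 against 3 and 0.333 for 2 against 2, so none was used.

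For eCLIP peaks, the authors merged 2 replicates per state against size-matched input. Each peak was used with the log2 enrichment and the −log10 adjusted p that the authors deposited for it. Peaks were placed with Gencode 44 lifted to GRCh37. The sequences of 2 exons are not reported here. Read depth of the eCLIP libraries is not given in the sources used here.

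Members were named in full for each segment that passed in any comparison and, otherwise, for the deepest exon with a mean PSI of 5 to 95%. From the lists, up to 6 genes and 6 events with the largest changes were named. Likeness used the 3 highest Pearson r and peaks the highest log2 per gene and state. Other segments and listed genes were named after their values were seen. Alternatives comprised read minimums, dispersion trends, a limma test on logit PSI, scaling, pseudocount, leaving out each library and a replicate block. Leaving out libraries of the MES knockdown and of the interaction, and the peak cutoffs of the study methods, were added after seeing the data.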

Additional observations from a re-analysis of the deposited data

How the results depend on the processing

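Over 31 results and 356 alternatives, 329 were labelled the same as reported. Of the results, 18 are single values with 246 alternatives. In 228 of these the direction and the side of the threshold stayed as reported, and 0 reversed a direction. The other results are counts, which have no direction and were judged only by how close they stayed to the reported count. The number of events that passed between the states, 6 as reported, was 2 with a mean of at least 50 reads and 3 with limma on the logit of PSI, where NFYA was kept and the YAP1 exon (adjusted p = 0.383) and both mutually exclusive TCF7L2 events (0.221 and 0.0769) were lost. It was 9 with a mean of at least 10 reads, 8 without the cutoff of 10 points and 5 to 7 with a library left out. The totals over all events moved too, from 1073 as reported to 975 with a mean of at least 50 reads and 541 on the logit. They were 1091 with a mean of at least 10 reads, 1849 without the cutoff and 692 with the replicate block. The replicate block by place in the list gave 4 events between the states, 0 in either knockdown and 0 of the 7 genes at gene level in each comparison, and it changed no call beyond the 2 TCF7L2 skipped exons described above. The NFYA 87 nt exon passed between the states under every alternative run. In the MES knockdown, every event fit with a library left out had a single library in a group. Without MES shAKAP8 1, mutually exclusive FOXM1 events passed, but many more of all events passed as well. The number of events that passed in these fits is therefore not read as a result about the members. At gene level, dropping the fold cutoff gave 1 member (NFYA) in the MES knockdown and 2 (FOXM1 and FOXP1) between the states, and leaving out libraries gave 0 to 1 in the MES knockdown. Of all genes that passed in the MES knockdown, 99 were higher and 106 lower, and 58 and 143 after scaling by total junction reads. Peaks over members in MES fell from 14 to 4 at a log2 of at least 3 and to 7 at a log2 over 2 with a −log10 p over 3, against 14 of 15 under both in EPI. The 1 exon within 1000 bases of a MES peak became 0 within 500 bases. The cause of these differences was not tested. Low counts limit the TCF7L2, MEF2D and FOXP1 values most, and 2 MES shAKAP8 libraries limit the MES knockdown.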
